A study of Mus musculus with 45 samples.

Results

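The genes described here are 43 genes of the DNA replication machinery, taken by name from the 23575 genes of the deposited gene table. All 43 were found there. They fall into 9 roles: the replicative helicase and the proteins that load it (10 genes), the factors that switch the helicase on (6), the sliding clamp and its loader (6), primase and the DNA polymerases (8), the supply of deoxynucleotides (4), the joining of Okazaki fragments (2), the single-strand binding complex RPA (3), the removal of uracil from DNA (Ung), and chromatin assembly with the handling of histone mRNA (3).

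Before a cell copies its genome, the origin recognition complex together with Cdc6 and Cdt1 loads rings of Mcm2 to Mcm7 onto DNA, and in S phase Cdc45 and the GINS complex turn each ring into an active helicase. Primase with polymerase alpha starts each strand, the clamp Pcna is placed on DNA by the Rfc complex and holds the other polymerases there, and Lig1 and Fen1 finish the lagging strand. Transcription of many of these genes is driven by E2F factors as cells enter S phase, so their mRNA is known to be abundant in dividing cultures and scarce in resting ones. Mouse embryonic stem cells are known for a short G1 phase.

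Gene expression was followed by long-read sequencing of cDNA on Oxford Nanopore flow cells as mouse neural progenitor cells were reprogrammed towards induced pluripotent stem cells. The progenitors came from the Oct4-GFP embryonic stem cell line O4G and carried a doxycycline-inducible factor set called OKMS or OKS, or none (wild type, WT). In name the factor sets differ by Myc, and the labels of both add a luciferase element whose role is not stated. Libraries were made in 2 ways, called R9 and R10 in the labels: 22 R9 libraries by direct cDNA synthesis from poly(A)-enriched RNA, and 23 R10 libraries by PCR of cDNA from total RNA.

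Day 0 progenitors grew in N2B27 medium with EGF, FGF-2 and heparin, and gave 4 libraries in R9 (WT replicates 1 and 2, OKMS, OKS) and 4 in R10 (WT replicates 2 and 3, OKMS, OKS). The medium control was WT cells after 2 days in FBS-LIF medium with doxycycline, called serum medium below, with 1 library in R9 and 2 in R10. OKMS and OKS cells in serum medium gave 1 library each at days 2, 4, 6, 10, 14 and 20 in R9. R10 covered days 2, 4, 6, 10 and 18 of OKMS and days 2, 6 and 18 of OKS. Cultures in 2i-LIF (N2B27 with LIF, CHIR-99021 and PD0325901) gave 3 R9 libraries (OKMS at days 14 and 20, OKS at day 20, moved at day 6) and 2 R10 libraries (OKMS and OKS at day 18, with the day of the move not given). WT embryonic stem cells in 2i-LIF closed the series, with 1 library each of the lines O4G and R1 in R9. R10 held 2 libraries of O4G, 3 of R1 and 2 of R1-Clone3. Whole cultures were sequenced, so fewer cycling cells and less RNA per cell cannot be told apart. The labels do not say for every group whether its libraries came from separate cultures, so p-values measure the spread between libraries, which may be technical.

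Values are CPM, the reads of a gene scaled to a common total over all genes of a library. The R9 libraries held 447990 to 1390424 such reads and the R10 libraries 566599 to 4236442, of which the 43 genes took 621 to 9467 and 2218 to 36976. The R10 libraries fell into sets that follow the labels in part. Mitochondrial genes took 0.124 to 0.319% of reads in the WT progenitors, the WT cells in serum medium and the R1 library whose label has no n number. In the other 18 R10 libraries they took 0.730 to 2.35%. In R10, comparisons of factor-carrying with WT cells, or of the 6 numbered stem-cell libraries with WT progenitors, therefore also compare these sets, and the part this plays in the results was not tested. Progenitors and stem cells matched their labels: the summed level of 10 pluripotent cell markers was 12.1 to 30.4 CPM in the 8 progenitor libraries and 10934 to 13507 CPM in the 9 stem-cell libraries. The neural marker Sox1 was listed at 0 in all 8 progenitor libraries, whose other neural progenitor markers summed to at least 4706 CPM.

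Promoters of many replication genes are known E2F targets, so the DNA just upstream was read first. RefSeq promoter windows of 300 bases (250 before the transcription start and 50 after it, build GRCm38.p6) were matched for 36 of the 43 genes. The E2F letters TTTCCCGC, TTTGGCGC, TTTCGCGC or TTTGCCGC, read on both strands, occurred in the windows of 13 of these 36 genes (36.1%), against 2.61% of 27025 genes with a window. The 13 genes were Mcm3, Mcm5, Mcm6, Mcm7, Orc1, Cdc6, Cdt1, Gins3, Rfc3, Pola1, Pold1, Pole2 and Lig1. The last 180 bases before the start are printed for 6 of them, 5′ to 3′ on the strand of the gene, with the E2F letters in capitals. Rrm2, Tk1, Mcm10, Chaf1b and Ung, which lead several of the comparisons below, had windows without these letters. The 6 printed genes were picked only from the 13 with them. They include Orc1 and Pola1, which stand out in R10 stem cells, and Gins3, which moved less than most. The stretches lie at chr1:128359706-128359885 (minus strand) for Mcm6, chr4:108579274-108579453 (plus) for Orc1, chr8:75109329-75109508 (plus) for Mcm5, chr11:98907971-98908150 (plus) for Cdc6, chrX:93632156-93632335 (minus) for Pola1 and chr8:95633379-95633558 (plus) for Gins3. The starts are those of RefSeq. As deposited, Cdc6 begins at 98907793 and Pola1 reaches 93632347, so these stretches lie inside the deposited genes, and the others do in part.
Mcm6: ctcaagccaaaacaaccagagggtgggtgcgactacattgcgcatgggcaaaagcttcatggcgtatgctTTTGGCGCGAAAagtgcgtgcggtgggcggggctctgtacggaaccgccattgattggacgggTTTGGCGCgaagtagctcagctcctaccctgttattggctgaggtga
Orc1: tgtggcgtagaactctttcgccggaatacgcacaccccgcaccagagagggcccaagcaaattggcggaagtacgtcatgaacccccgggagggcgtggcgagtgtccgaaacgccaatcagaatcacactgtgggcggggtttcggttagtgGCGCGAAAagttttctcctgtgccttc
Mcm5: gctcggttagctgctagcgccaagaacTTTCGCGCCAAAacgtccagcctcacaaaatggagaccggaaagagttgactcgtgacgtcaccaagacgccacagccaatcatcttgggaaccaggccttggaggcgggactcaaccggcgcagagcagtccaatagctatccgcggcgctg
Cdc6: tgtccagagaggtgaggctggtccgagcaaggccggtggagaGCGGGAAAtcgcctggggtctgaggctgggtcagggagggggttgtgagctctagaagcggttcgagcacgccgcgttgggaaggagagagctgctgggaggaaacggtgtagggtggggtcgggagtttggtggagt
Pola1: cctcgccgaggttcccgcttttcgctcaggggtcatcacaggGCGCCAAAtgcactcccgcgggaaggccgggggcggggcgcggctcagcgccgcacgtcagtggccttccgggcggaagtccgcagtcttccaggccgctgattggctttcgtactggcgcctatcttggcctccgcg
Gins3: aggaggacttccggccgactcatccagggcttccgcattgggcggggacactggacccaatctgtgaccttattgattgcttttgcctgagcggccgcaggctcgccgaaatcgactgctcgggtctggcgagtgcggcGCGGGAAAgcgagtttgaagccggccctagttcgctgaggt

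With -1 as the last base before the start, the letters in Mcm6 begin at -110, -106 and -47, and the first pair overlap on opposite strands. Mcm5 has such an overlapping pair at -153 and -149. Orc1 has a single match at -27, Gins3 one at -41, and Cdc6 and Pola1 one each at -138. The CCAAT box, searched as CCAAT on both strands, occurred in 23 of the 36 windows (63.9%), against 41.1% of all genes. The E-box CACGTG, a Myc-type site, occurred in 7 (19.4%, against 8.09%). The CHR element TTTGAA, known from genes of G2 and mitosis, occurred in 5 (13.9%, against 20.2%). A match describes the letters in the window, not binding. Genes with and without the E2F letters both moved in the comparisons below: in serum medium the median log2 difference was -2.94 over the 13 with them and -2.39 over the 23 without, and in R10 stem cells it was 1.20 and 0.91.

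The mean of log2(CPM+1) over the 43 genes gives one value per library, and it traced the course of the experiment in both chemistries. In R10 it was 6.29, 6.37, 6.39 and 6.44 in progenitors (6.37 ± 0.06, SD, n = 4) and 7.01 to 7.39 in the 7 stem-cell libraries. WT cells after 2 days in serum medium stood far below, at 3.65 and 3.47. Neither range overlaps with another. In R9 the progenitors were at 6.25 to 6.43, the WT serum library at 3.74 and the stem cells at 7.23 and 7.24.

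**Figure D1:**
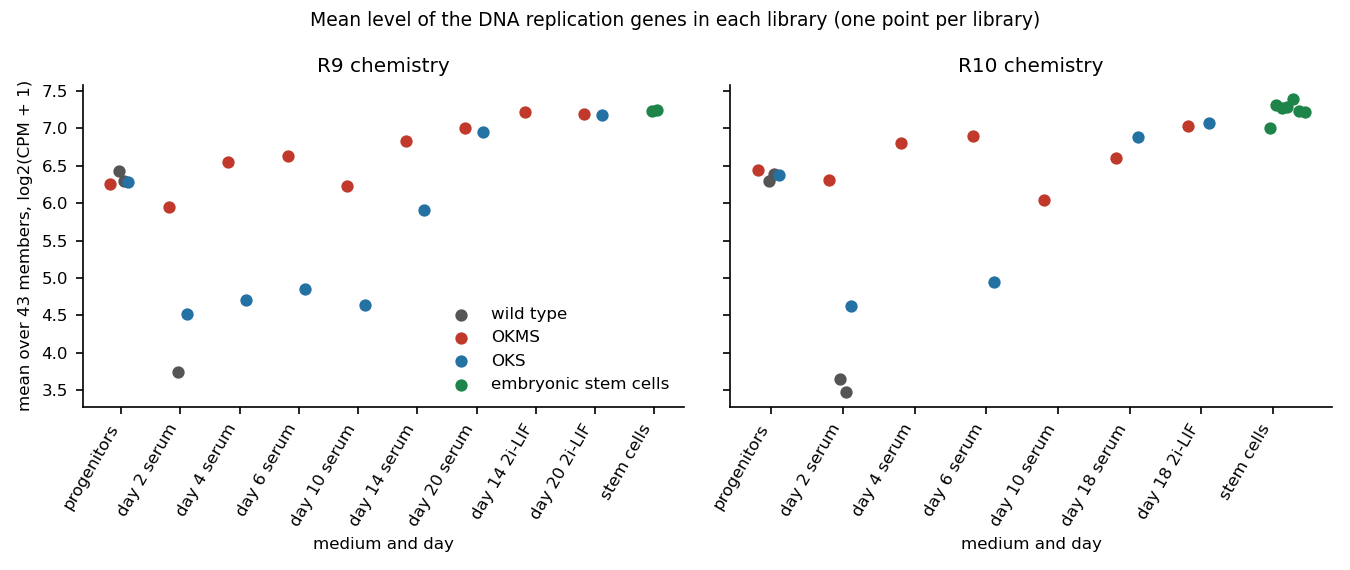
Mean of log2(CPM+1) over the 43 replication genes, one point per library, with medium and day on the x axis and R9 and R10 in separate panels. WT cells in serum medium sit lowest (3.47 to 3.74), the OKS libraries of days 2 to 10 lie between 4.52 and 4.94, and stem cells lie at 7.01 or above.

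After doxycycline, OKMS and OKS cells took different paths on this scale. In R9 the OKMS libraries read 5.95 at day 2, 6.56 at day 4, 6.63 at day 6, 6.23 at day 10, 6.83 at day 14 and 7.01 at day 20. The OKS libraries read 4.52, 4.70, 4.85, 4.64, 5.91 and 6.95 on the same days, so they lay below every R9 progenitor library through day 14 and beside OKMS at day 20. In R10, OKMS read 6.31, 6.80, 6.89, 6.04 and 6.60 at days 2, 4, 6, 10 and 18, and OKS read 4.63, 4.94 and 6.88 at days 2, 6 and 18. Cultures in 2i-LIF read 7.18 to 7.21 in R9 and 7.03 and 7.07 in R10.

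Most of the 43 genes followed this mean closely. Pearson's r of a gene with the mean of the other 42 across the 22 R9 libraries ranged from 0.70 to 0.99 with a median of 0.95, and it was over 0.9 for 33 genes. In the 23 R10 libraries it ranged from 0.72 to 0.99, with 31 genes over 0.9. Mcm5, Mcm6 and Lig1 were among the closest (0.98 to 0.99 in both chemistries). The loosest were Gins3 (0.70) and Rrm1 (0.77) in R9 and Chaf1a (0.72), Rpa1 (0.73), Rfc2 (0.76) and Tk1 (0.77) in R10. These correlations describe libraries that share depth, medium and day, and carry no test. From its lowest to its highest library a gene moved by 1.67 to 6.56 log2 units in R9, where Orc1 moved most, and by 1.74 to 6.95 in R10, where Rrm2 did.

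**Figure D2:**
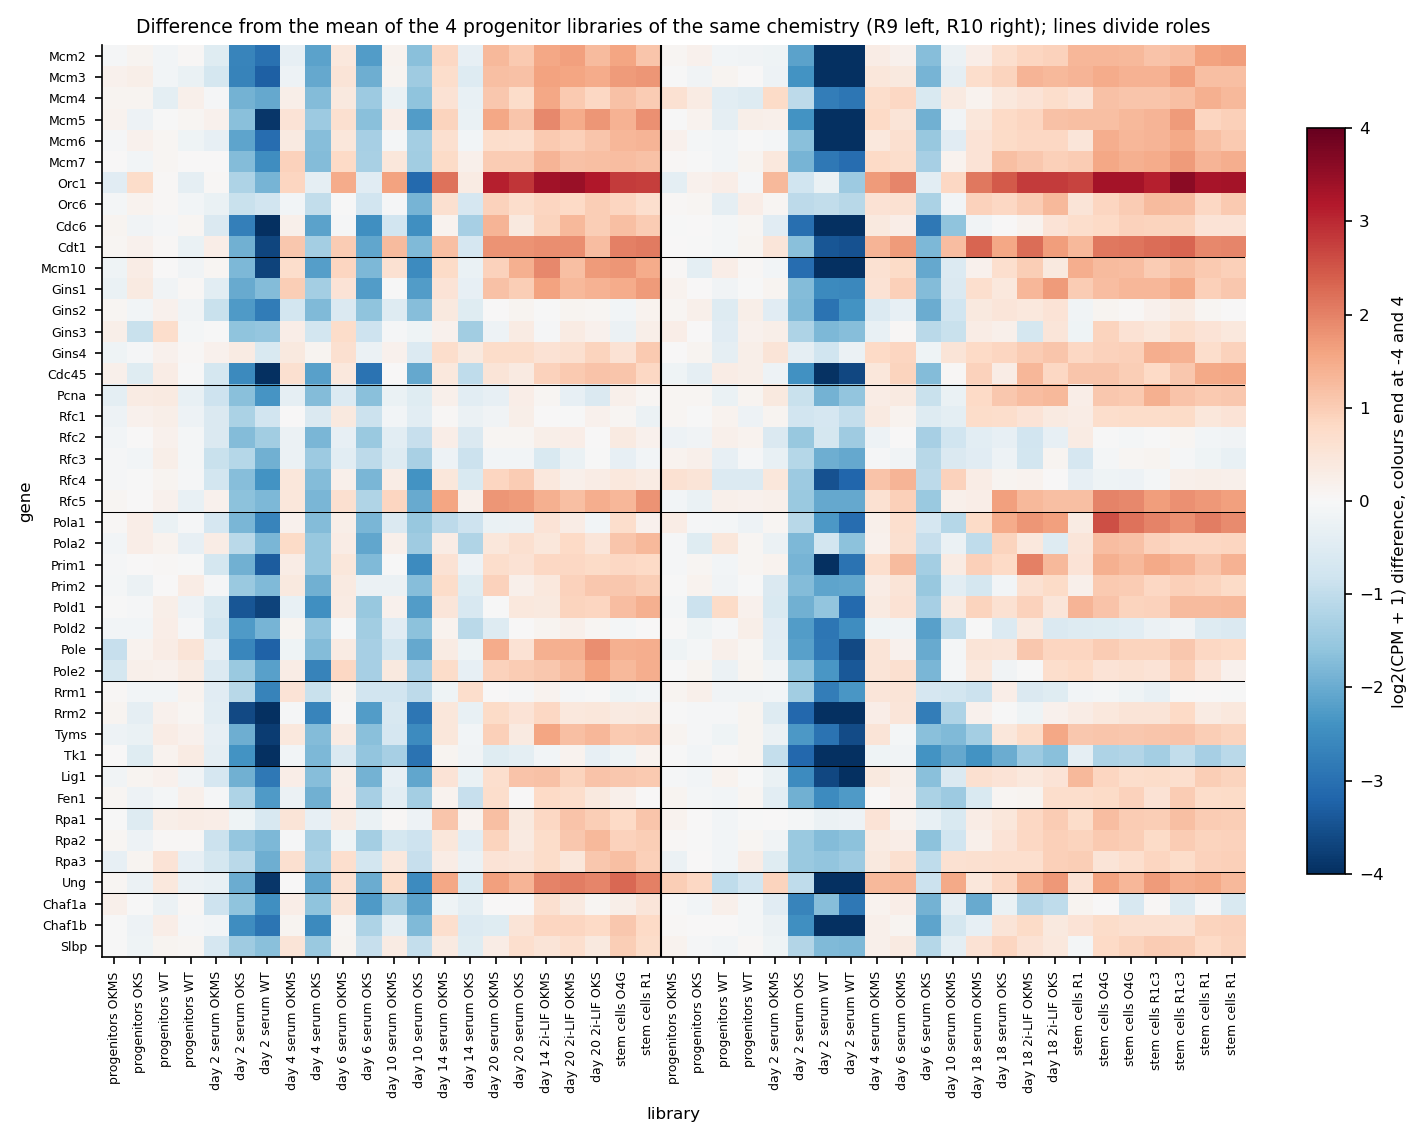
Difference in log2(CPM+1) of each of the 43 genes (rows, grouped by role) in each library (columns) from the mean of the 4 progenitor libraries of the same chemistry, with colours that end at -4 and 4. The columns of WT cells in serum medium are low in nearly all rows, with Rpa1 and Gins4 among the palest, and the Orc1 row is the highest in stem cells.

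The first comparison asked what the serum medium alone did to these genes, in WT progenitors that carried no factors. Genes were tested with limma on log2(CPM+1) across all expressed genes, with Benjamini-Hochberg adjustment over all of them, and a gene was called where the adjusted p was under 0.05 and the difference at least 1 log2 unit. In R10, 2 libraries against 2, 38 of the 43 genes fell and none rose, against 11.9% of all 14688 tested genes called lower. Their median difference was -2.56 log2 units, where the median over all genes was 0.12. Each WT serum library lay below all 4 R10 progenitor libraries in 42 of the 43 genes, against 26.4 and 28.7% of all genes. The R9 serum library lay below all R9 progenitors in 43 of 43, against 19.5%.

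The supply of deoxynucleotides fell furthest. Rrm2, the regulated subunit of ribonucleotide reductase (chr12:24705580-24714161, plus strand, mm10 as deposited), was at 367 and 404 CPM in WT progenitors and at 6.65 and 4.28 CPM in serum medium. Its log2 difference was -5.93 (SE 0.27, limma adjusted p 0.000947), a fold of 60.8 on that scale. Tk1, the thymidine kinase of the salvage pathway (chr11:117811941-117866328, minus strand), went from 485 and 507 CPM to 13.7 and 6.26 CPM, a log2 difference of -5.59 (SE 0.36, adjusted p 0.00135). In both genes the groups were far apart, and the R9 serum library held 5.66 CPM of each. Tyms, which makes thymidylate, went from 124 and 152 CPM to 17.2 and 10.9 CPM (log2 difference -3.24). Rrm1, the large and more stable subunit of the reductase, fell less, by 2.39 on the log2 scale.

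The helicase and its loader came next, with 8 of 10 genes lower and a median of -3.80. Cdc6, which helps to load the Mcm ring, was at 47.0 and 51.9 CPM in progenitors and at 1.17 and 0.66 CPM in serum medium, which is 3 and 2 reads. Its log2 difference was -4.73 (SE 0.37, adjusted p 0.00192). Mcm5 went from 123 and 186 CPM to 6.65 and 8.57 CPM (-4.15, SE 0.31, adjusted p 0.00169). Mcm2, Mcm3 and Mcm6 stood at -4.24, -4.46 and -4.19, while Mcm7 and Mcm4 of the same ring stood at -2.94 and -2.36. Cdt1, the partner of Cdc6, stood at -3.45. The subunits of the origin recognition complex were the exceptions. Orc1 was at 8.89 and 6.89 CPM against 5.87 and 1.98 CPM (-0.97, adjusted p 0.221). Orc6 was at 94.0 and 147 CPM against 61.5 and 55.3 CPM, a log2 difference of -0.999 (adjusted p 0.0462) that is just short of the limit of 1.

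Of the factors that switch the helicase on, 5 of 6 fell. Mcm10 went from 61.9 and 52.8 CPM to 1.17 and 0.66 CPM, again 3 and 2 reads (-4.94, SE 0.37, adjusted p 0.00172). Cdc45, a subunit of the active helicase, went from 55.3 and 53.4 CPM to 1.96 and 2.64 CPM (-4.08, SE 0.33, adjusted p 0.00209). The GINS subunits, which act as 1 complex, did not move by the same amount. Gins2 and Gins1 stood at -2.54 and -2.49, Gins3 at -1.61 and Gins4 at -0.45 (adjusted p 0.346), with Gins4 at 48.0 and 73.7 CPM in progenitors and 35.6 and 52.7 CPM in serum medium.

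All 8 genes of primase and the polymerases fell. Prim1, the catalytic subunit of primase, went from 50.5 and 57.7 CPM to 2.35 and 6.26 CPM (-3.48, SE 0.45, adjusted p 0.0057). Pole, the catalytic subunit of the leading-strand polymerase, went from 27.0 and 24.7 CPM to 2.35 and 0.99 CPM (-3.38, SE 0.43, adjusted p 0.00534). Pold1 and Pole2 stood at -2.80 each, Pold2 at -2.77, Pola1 at -2.56, Prim2 at -2.03 and Pola2 at -1.46.

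The clamp and its loader moved less, with 5 of 6 lower and a median of -1.74. Pcna went from 26.4 and 34.4 CPM to 7.83 and 9.88 CPM (-1.67, SE 0.33, adjusted p 0.0177). Its level is uncertain, since reads may go to the copy Pcna-ps2, listed at 3.49 and 6.03 CPM in these WT progenitors and at 47.4 to 73.6 CPM in the R9 progenitors. Rfc3 went from 84.8 and 102 CPM to 26.6 and 24.7 CPM (-1.82). Within the loader Rfc4 stood at -2.78, Rfc5 at -2.24 and Rfc2 at -1.25. Rfc1, the large subunit, did not pass: 172 and 135 CPM against 97.9 and 80.1 CPM (-0.78, adjusted p 0.0564).

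Lig1, the ligase of the lagging strand, went from 311 and 280 CPM to 21.5 and 15.2 CPM (-3.96, SE 0.25, adjusted p 0.00132), and the flap nuclease Fen1 went from 80.7 and 92.4 CPM to 14.5 and 17.5 CPM (-2.37). In RPA the subunits parted. Rpa2 went from 95.0 and 107 CPM to 29.8 and 32.0 CPM (-1.68) and Rpa3 stood at -1.63, while Rpa1 was at 91.2 and 98.1 CPM before and 85.0 and 85.7 CPM after (-0.15, SE 0.20, adjusted p 0.622). Rpa1 thus had the smallest difference of the 43 genes. Chaf1b, a subunit of the histone chaperone CAF-1, went from 72.4 and 66.9 CPM to 1.57 and 1.32 CPM (-4.86, SE 0.33, adjusted p 0.00143), and its partner Chaf1a stood at -2.35. Slbp, which binds the end of histone mRNA, went from 74.0 and 82.9 CPM to 23.1 and 22.7 CPM (-1.73). Ung, the uracil-DNA glycosylase, went from 46.7 and 55.1 CPM to 3.91 and 4.61 CPM (-3.30, SE 0.32, adjusted p 0.00282).

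Other cell cycle genes moved with them, given here as log2 differences. All 14 markers of G2 and mitosis fell (median -5.77), led by Ube2c (-6.93), Cenpa (-6.50) and Mki67 (-6.41). Of 39 further replication genes 25 fell and none rose (median -1.71), with the Pcna partner Pclaf lowest at -6.55. Of 17 E2F and RB regulators 12 fell and 1 rose. Among 10 translesion and backup polymerases only Rev3l fell (-2.12), and of 10 housekeeping genes 2 fell. Of 7 inhibitors of cyclin-dependent kinases, Cdkn2b rose (1.61) and Cdkn1a fell (-2.79). Markers of other cell types moved as well: 4 of 9 astrocyte markers rose, among them Gfap (8.12), and the summed level of the 9 was 1299 and 1508 CPM in WT progenitors and 8088 and 8468 CPM in serum medium. Of 8 tested neural progenitor markers 3 fell. Fibroblast markers, of which 2 of 7 tested rose, summed to 62.9 and 87.2 CPM and then to 999 and 1126 CPM. The part of these shifts in the fall of the 43 genes was not tested.

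With 2 libraries a side the test has little reserve. Leaving out either WT progenitor library, or replicate 2 of the serum medium, left no gene called among all 15562 to 16344 tested. The median difference of the 43 was then -2.55 to -2.63. Without replicate 3, 18 of the 43 were called lower, where 241 of all 16196 tested genes were. Among the R9 libraries, 1 against 2, 9 genes were called lower, against 0.541% of all 16625 tested genes: Mcm2, Mcm3, Mcm5, Mcm7, Rfc4, Prim1, Rrm2, Tyms and Tk1. The lone serum library is assumed here to vary like the progenitors.

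**Figure D3:**
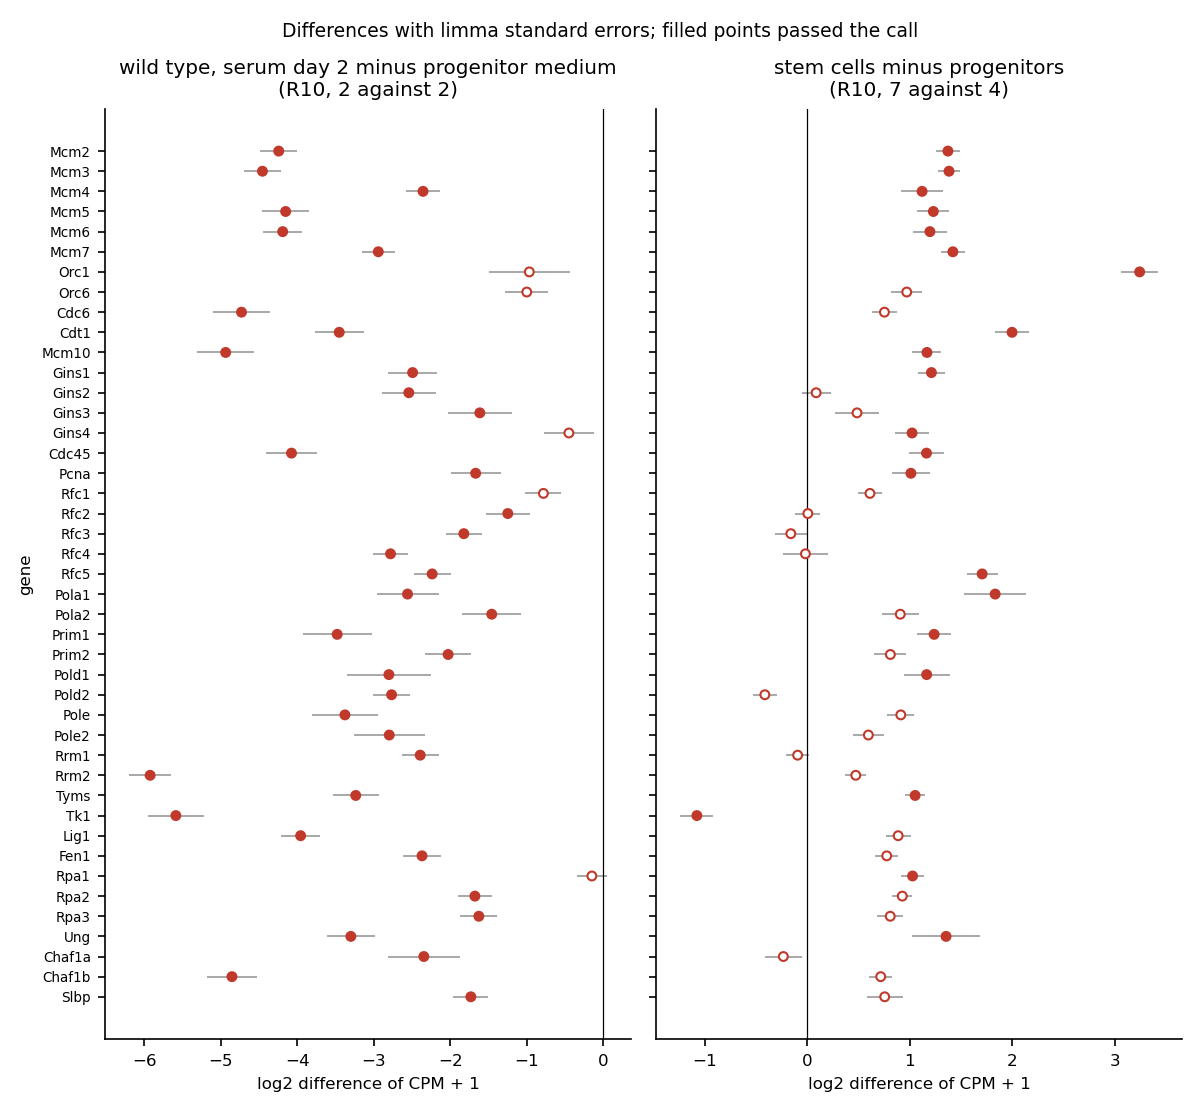
Differences in log2(CPM+1) with their limma standard errors for the 43 genes (rows) in several comparisons (panels), filled where called. In WT cells in serum medium 38 genes are filled on the low side and Rpa1 lies nearest 0; in stem cells Orc1 lies furthest on the high side.

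The next question was whether cells with the factors differ from WT cells in the same medium on the same day. These comparisons reuse the WT serum libraries just described. With OKMS and OKS pooled in R10 (2 libraries against 2), 3 genes were called higher and none lower, against 0.714% of 15402 tested genes, and the median difference was 1.80. Ung was at 179 CPM in OKMS and 47.0 CPM in OKS against 3.91 and 4.61 CPM in WT (4.14, SE 0.63, adjusted p 0.0209). A gap in the same direction was present at day 0 in R10, where Ung was at 188 and 168 CPM in OKMS and OKS progenitors against 46.7 and 55.1 CPM in WT, and not in R9 (59.2 and 47.2 against 74.9 and 47.4 CPM). The day 2 difference was not corrected for it. At day 2 in R10, listed transcripts accounted for 29.5% of Ung CPM in OKMS and 13.6% in OKS, against 116 and 95.9% in WT. Counting listed transcripts only, Ung was at 52.7 CPM in OKMS and 6.41 CPM in OKS, against 4.54 and 4.42 CPM in WT. On that count OKS lay only a little above WT. Rrm2 was at 263 and 41.8 CPM against 6.65 and 4.28 CPM (4.06, SE 0.74, adjusted p 0.0404). Mcm6 was at 118 and 37.7 CPM against 5.87 and 5.27 CPM (3.37, SE 0.59, adjusted p 0.0355). Groups did not overlap in these 3 genes, but in each the OKMS library lay several times above the OKS library. The count depends on the method: edgeR called 16 on the recovered reads (1.89% of all genes called higher) and DESeq2 19 (2.45%). After quantile normalization limma called none of the 43 and 29 of all genes (24 and 2334 at an unadjusted p under 0.05). Without the OKMS library, without the OKS library or without WT replicate 3 limma called no gene at all among the 16817 to 17326 tested. The median difference of the 43 was then 0.96, 2.66 and 1.68.

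The factor sets were therefore also taken apart, a choice made after seeing the data, with both chemistries in 1 fit and chemistry as a term. Libraries of the 2 chemistries may share RNA, which the labels do not state, and the error would then be too small. Against WT cells in serum medium, OKMS at day 2 had 31 of 43 genes higher and none lower, against 5.74% of all genes, with a median of 2.31. Rrm2 led at 5.15 (SE 0.37, adjusted p 0.00131), then Tk1 (4.60), Ung (4.45), Mcm10 (4.28), Mcm5 (4.26), Cdc6 (3.96), Cdt1 (3.94) and Chaf1b (3.86). In R10, Mcm5 was at 181 CPM in OKMS, within the range of 123 to 186 CPM of the progenitors, and at 29.5 CPM in OKS. The 12 genes not called were Orc1, Orc6, Gins3, Gins4, Rfc1, Rfc2, Pola2, Prim2, Pold1, Rpa1, Rpa3 and Chaf1a. All 14 markers of G2 and mitosis rose as well (median 5.16). Of the cell type markers, 2 of 9 astrocyte markers were lower and 1 of 9 tested neural progenitor markers was higher. The astrocyte markers summed to 2143 CPM in OKMS against 8468 and 8088 CPM in WT in R10, and to 2132 against 3960 CPM in R9. Their part in the difference was not tested.

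OKS at day 2 had none of the 43 called by limma, against 0.0868% of all genes called higher, although the median was 0.88. The largest differences were Ung at 2.64 (SE 0.53, adjusted p 0.124), Tk1 at 2.49 (SE 0.46, adjusted p 0.0929) and Rrm2 at 2.28 (SE 0.50, adjusted p 0.17). In R10 the Ung value rests on reads that listed transcripts account for only in part, as given above. For Tk1 the OKS libraries held 40.1 CPM in R9 and 53.0 CPM in R10, against 5.66, 13.7 and 6.26 CPM in WT, so the groups did not overlap. No cell type marker was called here. The astrocyte markers summed to 5146 CPM in OKS against 8468 and 8088 CPM in WT in R10, and to 4177 against 3960 CPM in R9.

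A direct comparison of the factor sets was possible over the R9 days, with OKMS and OKS paired by day (6 pairs). Each factor set has a single library per day, so the pairs are successive days and not repeats of a condition. The p-values of this comparison measure how steady the difference was over the days. Here 29 of 43 genes were higher in OKMS and none lower, against 6.93% of 14277 tested genes, and the median was 1.32 where the median over all genes was -0.11. Cdt1 led: its OKMS libraries held 58.8, 102, 98.3, 118, 112 and 170 CPM at days 2, 4, 6, 10, 14 and 20, and its OKS libraries 12.0, 18.1, 10.7, 13.4, 29.8 and 171 CPM (2.10, SE 0.33, adjusted p 0.00142). OKMS was thus higher by several times until day 14 and level with OKS at day 20. Ung ran from 45.2 CPM at day 2 to 176 CPM at day 20 in OKMS, and in OKS it was at 8.92 to 13.4 CPM until day 10 and reached 144 CPM at day 20 (2.02, SE 0.31, adjusted p 0.00126).

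Cdc45 held 36.2 to 91.8 CPM in OKMS and 6.69 to 29.0 CPM in OKS up to day 14, with 85.0 and 76.2 CPM at day 20 (1.94, SE 0.34, adjusted p 0.00208). Rrm2 was at 190, 248, 263, 163, 350 and 438 CPM in OKMS against 20.1, 40.1, 53.6, 33.5, 208 and 372 CPM in OKS (1.88). Mcm5 was at 181, 238, 252, 193, 301 and 477 CPM against 49.5, 58.2, 49.5, 33.5, 133 and 348 CPM (1.72). The 29 genes were 9 of the 10 in the helicase and loader role (all but Orc6), 7 of the 8 of primase and the polymerases (all but Pola1), 3 of 6 activators, 3 of 4 of the nucleotide supply, 2 of 6 clamp genes, both of Lig1 and Fen1, both CAF-1 subunits and Ung. No RPA subunit passed, at 0.65 (adjusted p 0.011), 0.78 and 0.94.

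The smallest difference between the factor sets was that of Gins4. It was at 89.3, 104, 123, 88.6, 130 and 132 CPM in OKMS and at 98.9, 84.9, 66.9, 53.5, 104 and 133 CPM in OKS (0.34, adjusted p 0.176). Rrm1 (0.40), Rfc1 (0.46), Rfc3 (0.58) and Pcna (0.60) followed, all under the limit. Over days 2 to 10 alone, a period set after seeing the data, 35 genes were higher (8.99% of all genes), with Cdt1 at 2.69 (adjusted p 0.000164), Mcm10 at 2.64 and Rrm2 at 2.58 (adjusted p 6.8e-05).

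Over days 14 and 20, 2 pairs, limma called none, against 0.0064% of all genes, with a median of 0.47. The change of the difference between the periods had a median of -1.26, and again limma called none of the 43, against 0.007% of all genes. Day by day, the mean over the 43 genes was higher in OKMS by 1.42, 1.85, 1.78, 1.60, 0.92 and 0.05 log2 units from day 2 to day 20, from -0.03 at day 0. In R10 it was higher by 1.68 at day 2 and 1.95 at day 6, with a difference of -0.29 at day 18. The 3 R10 pairs on their own gave no call with limma among all 15135 tested genes. The median of the 43 genes in them was 1.14 and that of all genes -0.19, and 20 of the 43 had an unadjusted p under 0.05, as did 2389 of all genes. On days 2 to 10 in R9, 39 to 41 of the 43 genes of each OKS library lay below every progenitor library, against 19.9 to 21.7% of all genes. In OKMS 26, 7, 5 and 16 did at days 2, 4, 6 and 10, against 16.1, 19.8, 18.1 and 20.6% of all genes. At days 4 and 6 these counts are near the background. On those 2 days 23 and 29 of the 43 genes in OKMS lay above every R9 progenitor library, against 25.2 and 28.6% of all genes, and in R10 32 and 33 lay above every R10 progenitor library, against 31.2 and 33.4%.

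**Figure D4:**
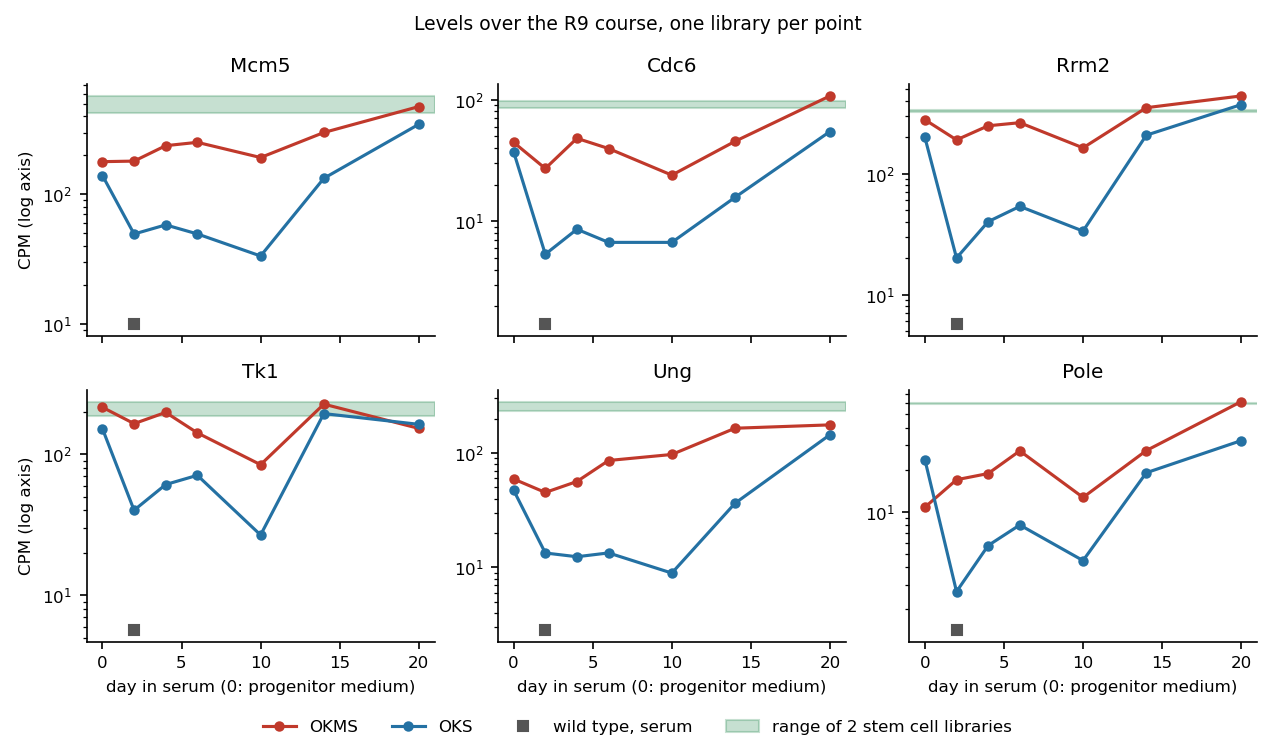
CPM on a log axis of Mcm5, Cdc6, Rrm2, Tk1, Ung and Pole by day in the R9 libraries, with day 0 in progenitor medium, OKMS and OKS in serum medium joined by lines, the WT serum library as a square and the range of the stem-cell libraries as a band. For Ung the OKS points stay between 8.92 and 13.4 CPM on days 2 to 10 and reach 144 CPM on day 20, where OKMS is at 176 CPM.

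Other cell cycle genes differed between the factor sets as well. Of the 14 markers of G2 and mitosis 13 were higher in OKMS (median 1.47), and of 39 further replication genes 17 were, led by Ticrr (2.34), Cdc7 (2.28) and Wdhd1 (2.19), which act in origin firing and at the fork. The inhibitors Cdkn2c (-2.48), Cdkn2b (-1.24) and Cdkn1b (-1.09) were lower. Cell type markers differed too: 6 of 9 astrocyte markers were lower in OKMS and 1 was higher, 5 of 8 tested neural progenitor markers (median -1.35) and 5 of 7 tested fibroblast markers were lower, and 6 of 10 pluripotent cell markers were higher. At day 2 in R9 the astrocyte markers summed to 2132 CPM in OKMS and 4177 CPM in OKS. Their part in the difference was not tested.

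Along the R9 course, OKMS and OKS were also taken as 2 libraries per day. Measured from day 0, 5 genes were called, Mcm2 (-1.59), Mcm3 (-1.89), Cdc6 (-1.64), Gins2 (-1.56) and Rpa2 (-1.16), against 10.7% of all genes called in either direction, so the share of the 43 is near the background. Each was furthest from day 0 at day 2. The limma adjusted p, from 0.0242 to 0.0467, came from an F test per gene over all day differences. It does not single out day 2, and the fit takes the factor sets to differ by the same amount on every day. The median over the 43 genes was -1.07 at day 2, -0.66 at day 4, -0.60 at day 6, -0.90 at day 10, 0.14 at day 14 and 0.72 at day 20. These medians pool factor sets that parted on days 4, 6 and 14: the mean over the 43 genes was above its day 0 value in OKMS (6.56, 6.63 and 6.83 against 6.25) and below it in OKS (4.70, 4.85 and 5.91 against 6.29). Without the day 2 libraries limma called none of the 43 and 1367 of all 18686 tested genes (17 and 4725 at an unadjusted p under 0.05). Without day 14 it called 1 of the 43 and 1879 of all genes, and without day 20 it called 1 and 601. The split into higher and lower depended on the method: edgeR called 10 higher and 23 lower, DESeq2 7 and 15, and limma after median centring 3 and 14. Of all genes, edgeR called 23.6% and DESeq2 13.3% in either direction. Cell type markers moved over the same days: 8 of 10 pluripotent cell markers rose, 8 of 10 neural progenitor markers fell, and of 9 astrocyte markers 2 rose and 2 fell. Their part was not tested.

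Measured from day 2, where both factor sets are already in serum medium, 11 genes rose and none fell, against 7.22% of all genes called in either direction. They were Mcm2 (2.72), Mcm3 (2.86), Mcm4 (1.87), Mcm5 (2.09), Cdc6 (2.54), Gins2 (1.64), Rfc5 (2.47), Rrm2 (2.67), Tyms (1.80), Rpa2 (1.85) and Ung (2.64), all furthest at day 20. Here too the limma adjusted p, from 0.0193 to 0.0468, is that of the F test over all day differences, not of day 20 alone. The median over the 43 genes was 0.49, 0.46, 0.17, 1.12 and 1.85 at days 4, 6, 10, 14 and 20, and at day 20 all 43 lay above day 2. Without day 20 limma called none of the 43 and 8 of all 18109 tested genes (18 and 1728 at an unadjusted p under 0.05). Without day 14 it called 5 of the 43 and 1206 of all 18332, without day 4 it called 7 and 1137 of 18688, and after quantile normalization 1 of the 43 and 702 of all genes. In contrast edgeR called 37 (20.7% of all genes in either direction) and DESeq2 26 (10.9%). From day 2, 8 of 10 pluripotent cell markers rose, while 6 of 10 neural progenitor markers, 4 of 9 astrocyte markers and 4 of 7 inhibitors of cyclin-dependent kinases fell. Their part in the rise was not tested.

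Established stem cells were then set against progenitors, within each chemistry. These comparisons reuse the WT progenitor libraries of the medium comparison. In R10, 7 libraries against 4, 20 genes were higher, against 22.4% of 15415 tested genes called higher, and 1 was lower, against 23.5% called lower. The median was 0.93, and over all genes 0.01. In R9, 2 libraries against 4, 21 were higher and none lower, against 17.6% of 15746 called higher, with a median of 0.97. Nearly all called genes differed by 1 to 2 log2 units.

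Orc1 and Cdt1, which both act in loading the helicase, had the largest differences in R10. Orc1, the ATPase subunit of the origin recognition complex (chr4:108579296-108616033, plus strand), was at 5.27 to 8.89 CPM in R10 progenitors (7.31 ± 1.59, SD, n = 4). In R10 stem cells it was at 51.9 CPM in the lowest library, 80.6 in the median and 98.0 in the highest (77.6 ± 14.0, SD, n = 7). The log2 difference was 3.24 (SE 0.18, limma adjusted p 3.62e-10), the largest of the 43 genes. R9 gave 5.38 to 13.5 CPM in progenitors and 59.7 and 57.7 CPM in stem cells (2.78, SE 0.38, adjusted p 0.00148). Orc6 of the same complex was at 0.97 in R10 and 0.77 in R9, under the limit of 1 in both.

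Cdt1 (chr8:122567977-122573557, plus strand) was second in R10. Its progenitor libraries held 44.1 to 50.5 CPM (47.1 ± 2.66, SD, n = 4) and its stem-cell libraries 117 CPM at the lowest, 205 in the median and 239 at the highest (2.00, SE 0.16, adjusted p 3.25e-08). In R9 it was at 39.7 to 54.0 CPM and then 198 and 208 CPM (2.05, SE 0.16, adjusted p 0.000173). The groups did not overlap in either chemistry. All 6 Mcm genes rose in both chemistries, by 1.12 to 1.42 in R10 and by 1.09 to 1.73 in R9. Mcm5 went from 160 ± 27.8 (SD, n = 4) to 378 ± 75.5 CPM (SD, n = 7) in R10. Cdc6 stood at 0.75 in R10 and rose by 1.12 in R9.

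Of the helicase activators, Mcm10 (1.17) and Gins1 (1.21) rose in R10 and also in R9 (1.63 and 1.59). Cdc45 (1.16) and Gins4 (1.02) rose in R10 and were at 0.97 and 0.81 in R9. Gins2 was near 0 (0.09 and 0.03), with 102 to 171 CPM in R10 progenitors and 131 to 182 CPM in stem cells, which overlap.

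Among clamp and loader genes Rfc5 was the exception. It was at 50.8 to 69.9 CPM in R10 progenitors and 142 to 244 CPM in stem cells (1.71, SE 0.15, adjusted p 7.1e-08), and rose by 1.56 in R9. Rfc2 (0.01), Rfc3 (-0.16) and Rfc4 (-0.02) of the same complex did not pass in R10, and lay at 0.27, -0.21 and 0.38 in R9. The R10 value of Rfc4 depends on the progenitor library: it was at 136 and 135 CPM in WT but at 307 and 284 CPM in OKMS and OKS progenitors, with stem cells between them at 161 to 236 CPM. Mcm4 (113 and 106 CPM in WT, 234 and 190 CPM in OKMS and OKS) and Pold1 (75.6 and 49.6 CPM in WT, 42.2 CPM in OKMS and lower in OKS) also differed among the progenitors. Pcna was just over the limit in R10 (1.01) and at 0.13 in R9, with the uncertainty named above.

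Of the polymerases, Pola1, the catalytic subunit of polymerase alpha (chrX:93304766-93632347, minus strand), rose in R10 from 25.5 to 36.5 CPM to a median of 119 CPM (1.83, SE 0.30, adjusted p 6.26e-05). Its lowest stem-cell library, R1 without an n number, held 37.0 CPM, close to the progenitors, and the next held 105 CPM. In R9 it was at 0.44 (adjusted p 0.164). Pold1 rose in both (1.16 and 1.32) and Prim1 in R10 (1.24, with 0.81 in R9). In R9, 5 of the 8 primase and polymerase genes rose: beside Pold1 these were Pole (1.43), Pole2 (1.38), Pola2 (1.21) and Prim2 (1.02), which stood at 0.91, 0.60, 0.91 and 0.81 in R10. Pold2 was at -0.41 in R10 and -0.04 in R9.

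Ung rose in both chemistries, with values that depend on the progenitor library in R10. It was at 46.7 and 55.1 CPM in WT, 188 in OKMS and 168 CPM in OKS progenitors, and at 143 CPM in the lowest, 261 in the median and 309 CPM in the highest stem-cell library (1.35, SE 0.34, adjusted p 0.00209). The groups overlap through the factor-carrying progenitors, where listed transcripts accounted for only 17.7 and 21.0% of the gene's CPM. In R9 all 4 progenitor libraries held 47.2 to 74.9 CPM and stem cells 281 and 232 CPM (2.16, SE 0.22, adjusted p 0.000522). Of the single-strand binding subunits, Rpa1, which did not pass in serum medium, rose by 1.03 in R10 and was at 0.95 in R9.

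On the lagging strand Lig1 stood at 0.89 in R10 and rose by 1.06 in R9, and Fen1 stood at 0.78 and 0.10. Of the genes for chromatin assembly and histone mRNA, Slbp (0.76 and 0.86) and Chaf1b (0.72 and 0.94) stayed under the limit in both chemistries, and Chaf1a was at -0.23 and 0.37.

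The supply of deoxynucleotides did not rise as a group. Tyms rose by 1.05 in both chemistries. Rrm2 was at 365 to 404 CPM in R10 progenitors and 469 to 651 CPM in stem cells (0.47, adjusted p 0.000839), a small step with no overlap. Rrm1 was at -0.09 and -0.14. Tk1 fell in R10: from 435 to 507 CPM in progenitors (473 ± 30.8, SD, n = 4) to 183 to 371 CPM in stem cells (230 ± 65.0, SD, n = 7), a log2 difference of -1.07 (SE 0.16, adjusted p 2.58e-05). In R9 its progenitors held 152 to 264 CPM and its stem cells 188 and 236 CPM (-0.01, adjusted p 0.978). The difference between the chemistries was itself -1.07 (SE 0.29, limma adjusted p 0.0426), and Tk1 was the only one of the 43 genes for which it passed, where 2.28% of all 18341 tested genes passed in that direction. The count of 1 of 43 is near that background. Tk1 also missed the limit of 1 with edgeR (-0.97), DESeq2 (-0.95) and median centring (-0.84), which puts the median of all genes at 0.24 instead of 0.01.

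The R1 library without an n number shares its low mitochondrial share with the WT progenitors. Without it, 21 genes were higher and 1 lower in R10. Against the WT progenitors alone, that library gave 2 calls, Mcm2 (1.44) and Rfc5 (1.02), against 10.7% of all 16529 tested genes called higher. This share of the 43 genes is below the background. Their median difference was 0.71, where all genes gave -0.01. With 1 library against 2 the lone library is assumed to vary like the others. Across the other gene lists in R10, 1 of 14 markers of G2 and mitosis rose (Bub1, 1.24). Of 39 further replication genes 14 rose and 4 fell, with Ticrr, which brings Cdc45 to origins, highest at 2.57, Pold4, the small subunit of polymerase delta, at -2.32 and Pclaf at -1.73. Of 17 E2F and RB regulators 1 rose (Ccne1, 1.57) and 4 fell, among them E2f2 (-2.09) and Rbl1 (-1.80). The inhibitors Cdkn2c (-3.42) and Cdkn1c (-3.00) fell. Of the cell type markers, all 10 of pluripotent cells rose, and all 8 tested of neural progenitors and 6 of 8 tested of astrocytes fell.

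**Figure D5:**
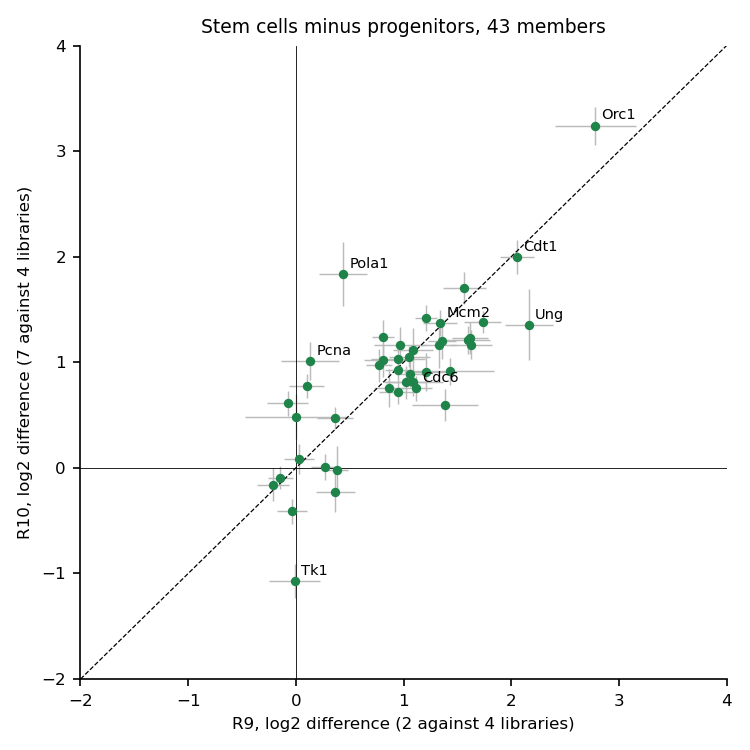
Stem cells minus progenitors in log2(CPM+1) for the 43 genes, R9 on the x axis and R10 on the y axis, one point per gene. Orc1 lies highest in both (2.78 and 3.24), and Tk1 lies at -0.01 in R9 and -1.07 in R10.

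Medium was varied once more late in the course, where 5 cultures in 2i-LIF can be paired with a culture of the same factor set, day and chemistry in serum medium. Serum medium held doxycycline and 2i-LIF is listed without it, so medium and doxycycline cannot be told apart in these pairs. Of the 43 genes only Tyms was called higher and none lower, against 5.95% of 14935 tested genes called higher. Tyms (chr5:30039142-30073656, minus strand) was at 391 CPM in 2i-LIF and 181 in serum medium for OKMS at day 14, at 304 and 255 CPM for OKMS at day 20 and at 331 and 170 CPM for OKS at day 20, all in R9. In R10 at day 18 it was at 235 and 53.4 CPM for OKMS and at 408 and 191 CPM for OKS. It was higher in 5 of 5 pairs (1.10, SE 0.21, limma adjusted p 0.00134). The call was lost without the R10 OKMS pair. Ung (0.66, adjusted p 0.00825), Gins1 (0.70, adjusted p 0.0271), Cdc45 (0.54, adjusted p 0.0411) and Mcm3 (0.53, adjusted p 0.0238) passed on p but not on size. The median over the 43 genes in each pair was 0.16 to 0.42. In the same fit 7 of 10 pluripotent cell markers were higher and 1 was lower, and 4 of 6 tested astrocyte, 3 of 7 tested neural progenitor and 1 of 6 tested fibroblast markers were lower.

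Reprogrammed cells in 2i-LIF were set against the 6 numbered stem-cell libraries in R10, which have the same medium. Only Pola2, the second subunit of polymerase alpha, was called lower and none higher, against 6.59% of 15571 tested genes called lower. It was at 45.8 CPM in OKMS and 23.5 CPM in OKS against 60.7 to 80.3 CPM in stem cells (-1.02, SE 0.22, limma adjusted p 0.00961). Without the OKS library the difference was -0.55 (adjusted p 0.07), so the call rests on that library. It was also lost, by less, without either O4G library (-0.97 and -0.98), with DESeq2 (-0.94), after quantile normalization (-0.92) or median centring (-0.91), and in the R9 libraries (-0.63, adjusted p 0.237). The median over the 43 genes was -0.22. Orc1 (-0.52, adjusted p 0.0268) and Mcm4 (-0.60, adjusted p 0.00608) were lower by less than the limit. Cdt1 stood at -0.16 (SE 0.16) and Ung at 0.09 (SE 0.13), both within about 1 SE of 0.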

How the data were processed

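Gene values were CPM and transcript values TPM, both deposited by the authors. Alignment used minimap2 2.24-r1122 to mm10, per the submitters' processing notes, and the counting tool is not given in the sources used here. Of all CPM values, 100% were whole multiples of 1 read within 0.02 reads, which gave reads and depth. A further 13 columns of the gene table matched no sample and were not used. Genes with at least 1 CPM in as many libraries as the smaller arm (2 for the day courses) were tested two-sided with limma 3.58.1 in R 4.3.3 on log2(CPM+1), a pseudocount of 1. P-values were adjusted by Benjamini-Hochberg over all tested genes, and calls needed an adjusted p under 0.05 and a log2 difference of at least 1. For the day courses the p was that of limma's F test over all day differences, with factor set as an additive term. There the largest day difference had to reach the limit. The limma fits for serum medium, R10 stem cells and OKMS against OKS were also run on simulated counts, and the outcome is not given here. edgeR 4.0.16 and DESeq2 1.42.0 on recovered reads, other pseudocounts, filters and scalings, and leaving out libraries were alternatives. The genes and lists were chosen with earlier results of these data known. By rule, per-library values were given for the 3 called genes with the largest difference in each direction and, where results turn on them, for preset anchors of each role (Mcm5, Cdc6, Cdc45, Pcna, Rfc3, Prim1, Pole, Rrm2, Tk1, Fen1, Rpa2, Ung, Chaf1b, Slbp). Those of other genes (such as Gins4, Rpa1, Orc6, Rfc1, Rfc4 and Lig1) were added after their values were seen. Positions are 1-based as deposited, and TPM keeps no depth. Intervals and errors cover the spread between libraries only.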

Additional observations from a re-analysis of the deposited data

Results flagged for a closer look

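Single libraries stood apart from their group in 14 of 132 combinations of a group with a gene or with the mean over the 43 genes. Chance gives about 1 in 20 for separate tests, but the genes move together, so the combinations are not independent. The measure is the gap to the nearest other library divided by the range of the group. In the 7 R10 stem-cell libraries, the R1 library without an n number was always the one apart. It was lowest for Mcm4 (0.651 of the range, 222 CPM), Cdt1 (0.621, 117 CPM), Pcna (0.677, 38.5 CPM), Pola1 (0.665, 37.0 CPM), Prim1 (0.591, 79.9 CPM), Prim2 (0.676, 42.9 CPM), Ung (0.652, 143 CPM) and Slbp (0.788, 76.9 CPM), and highest for Tk1 (0.640, 371 CPM). In the R10 progenitors, WT replicate 2 was lowest for Pcna (0.874, 26.4 CPM) and WT replicate 3 for Chaf1b (0.858, 66.9 CPM). In the R9 progenitors, the OKMS library was lowest for Pole2 (0.855, 21.5 CPM) and the OKS library for Rrm2 (0.840, 199 CPM) and Rpa2 (0.833, 87.7 CPM). The stem cell minus progenitor difference of Tk1 differed between the chemistries by -1.07 log2 units (R10 minus R9, limma adjusted p 0.0426).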

How the results depend on the processing

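Counts of called genes among the 43 moved with the libraries left out. For the factors at day 2, the day courses and the reprogrammed cells they also moved with the method. For serum medium on WT (38), the R9 libraries gave 9, and leaving out single libraries 0 to 18. The replicate block gave 38, and called 2318 of all 14688 tested genes lower where the main fit called 1747. Same-numbered libraries deviated together (r = 0.474 over these genes). The labels do not say whether they share a culture, and there are only 2 pairs. The main fit therefore takes them as unpaired, and whether they are pairs is not known. For the factors at day 2 (3), a pseudocount of 0.25 gave 1, a minimum of 5 CPM 9, quantile normalization 0, median centring 14, edgeR 16, DESeq2 19, R9 libraries 0, both chemistries 8 and leaving out libraries 0 to 5. Of all genes, 71 of 15402 were called higher with that pseudocount and 170 of 11549 with the 5 CPM minimum. Median centring called 289 of 15402 higher, and both chemistries 219 of 15637. The fits chosen after seeing the data gave 31 (OKMS) and 0 (OKS). For R10 stem cells (21), WT progenitors against the R1 library without an n number gave 2, and leaving out libraries 17 to 22. From day 0 (5), the counts were 3, 12, 2, 17, 33 and 22 under the pseudocount, the 5 CPM minimum, quantile normalization, median centring, edgeR and DESeq2, and 0 to 7 without single days. From day 2 (11), quantile normalization gave 1, median centring 27, edgeR 37, DESeq2 26 and leaving out days 0 to 12. For OKMS against OKS (29), R10 pairs gave 0, leaving out days 25 to 36, and the added fits on days 14 and 20 and on the change between periods 0 each. Without single days, 639 to 1349 of all genes were called higher in OKMS. For 2i-LIF against serum medium (1), R9 pairs or R10 pairs alone gave 0, where 558 and 104 of all genes were called higher. Leaving out pairs gave 0 to 1. For reprogrammed cells against stem cells (1), quantile normalization, median centring, DESeq2 and the R9 libraries gave 0, and leaving out libraries 0 to 1. Stem cells against progenitors in R9 (21) ranged from 16 to 26 over all alternatives run. The difference in the mean over the 43 genes in R10 (0.87) was 0.80 to 0.93 under its alternatives. Single-gene values were followed only for genes called in the main fit. Counted once for each gene, comparison and alternative, 1546 values kept the call, 351 lost it and none reversed. Genes that gained a call are not in these counts. Depth limits the genes at a few reads in serum medium (Cdc6, Mcm10, Pole, Chaf1b), whose log2 differences lean on the pseudocount, and no error covers a shared source of R9 and R10 RNA.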

Other observations

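The deposited transcript table lists 1311 transcripts for the 43 genes, 7 to 68 per gene. Of these, 173 match an annotated splice form in full and 742 carry splice sites outside the annotation. In Prim2, Rrm1 and Ung, single transcripts took shares of the TPM, before any weighting by length, that differed by over 30 percentage points between progenitors and stem cells in both chemistries. All 1311 transcripts were screened for such a shift, so these 3 genes were picked by their values, and the shares are given with no test. How many of all genes hold such a transcript was not counted.

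In Prim2, the regulatory subunit of primase, a full match of 1982 bases and 14 exons held 71.8 to 94.7% of the TPM in R9 progenitors and 85.9 to 91.8% in R10 progenitors. In stem cells it held 39.9 and 45.6% in R9 and 29.9 to 55.3% in R10. The groups did not overlap, but the transcript was picked by this same shift. In Rrm1, a transcript of 642 bases listed as non-coding held 57.0 to 76.0% and 45.2 to 57.0% in progenitors and was listed at 0 in all 9 stem-cell libraries. Weighted by length its share in progenitors was 27.3 to 43.6% in R9 and 16.6 to 22.3% in R10, the latter under 30 points.

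In Ung, a non-coding transcript of 422 bases with 2 exons (chr5:114137158-114137269 and chr5:114139009-114139318, plus strand, mm10 as deposited) held 82.9 and 86.0% of the TPM in R9 stem cells and 77.3 to 92.3% in R10 stem cells. In the 3 R9 cultures in 2i-LIF it held 91.4 to 91.8%. It was listed at 0 in all 8 progenitor libraries, in every culture in serum medium and in both R10 cultures in 2i-LIF. Those in serum medium include the R9 cultures of the same days and factor sets as the 3 in 2i-LIF. TPM favours short transcripts: weighted by length the share was 48.3 and 54.9% in R9 and 41.3 to 67.1% in R10 stem cells. Listed Ung transcripts account for widely different shares of the gene's reads between libraries, so an entry of 0 can be a failed estimate.

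In Mcm5, one short transcript held 57.6 to 78.6% of the TPM in the 4 R10 libraries of day 18, 34.8 to 38.7% in the 6 numbered R10 stem-cell libraries and 6.57% in the R1 library without an n number. In OKMS of R10 it held 10.7% at day 2, 12.8% at day 4, 27.6% at day 6 and 26.4% at day 10, and it was listed at 0 in OKS at days 2 and 6, in both WT serum libraries and in 3 of the 4 progenitor libraries (1.95% in the other). In R9 stem cells it held 3.60% in O4G and was listed at 0 in R1. In the R9 cultures of day 20 it held 3.10 and 6.00% in serum medium (OKMS and OKS) and 3.42 and 3.37% in 2i-LIF. The R9 cultures of day 14 listed it at 0. These shares are not weighted by length, and Mcm5 is not one of the genes picked above. Whether it follows the cells or the library set was not tested.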
